A study of Homo sapiens with 6 samples.

Results

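The genes described here are the protein-coding histone genes of the table, taken by name: symbols beginning with HIST1H, HIST2H, HIST3H, HIST4H, H1F, H2AF, H2BF or H3F3. The rule found 91 of the 58735 genes, of which 71 carry HIST names and are called replication-dependent here, and 20 carry the other names and are called replacement genes. They fall into linker histone H1, with 6 replication-dependent and 4 replacement genes, and the core histones H2A with 17 and 9, H2B with 18 and 4, H3 with 15 and 3, and H4 with 15 replication-dependent genes. The study sequenced RNA from TPC-1, a human papillary thyroid carcinoma cell line, in 3 libraries of the wild strain and 3 libraries of RRM2-OE-TPC-1. The latter are TPC-1 cells infected with a lentivirus made from the vector LV18, which expresses RRM2, a subunit of the enzyme that makes deoxyribonucleotides, from a CMV promoter, followed by puromycin selection. The sources used here name neither an empty vector nor selection for the wild strain, so the lentivirus, the selection and RRM2 itself cannot be told apart, and whether the infected line was 1 clone or a pool was not stated. The methods describe biological triplicates, and p-values measure the spread between these libraries. The genotype of RRM2-OE-TPC-1 replicates 2 and 3 reads RRM3 and RRM4 in the labels, whereas their titles read RRM2.

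Histones are the proteins around which DNA is wound into nucleosomes. Replication-dependent histone genes lie in clusters, are transcribed in S phase to package newly made DNA, and give mRNAs that end in a conserved stem-loop instead of a poly(A) tail. Replacement genes are transcribed throughout the cell cycle, mostly contain introns, give polyadenylated mRNAs, and their proteins (among them H2A.Z, macroH2A and the H3 variant of H3F3A and H3F3B) are deposited outside replication at promoters, silent chromatin or sites of damage. Some replication-dependent genes also give polyadenylated transcripts that run past the stem-loop, and these have been described in cells that leave the cell cycle.

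RRM2 was 9.17, 9.05 and 8.52 FPKM (fragments per kilobase of gene, scaled to depth, as deposited) in TPC-1 replicates 1 to 3, and 50.4, 47.5 and 47.2 in RRM2-OE-TPC-1. All 3 RRM2-OE-TPC-1 libraries lay above all 3 TPC-1 libraries, with a log2 fold change of 2.43 ± 0.04 (SE, adjusted p = 1.11e-08). The libraries held between 14317091 and 17084067 reads on genes. Of the thyroid follicular markers, PAX8 was at 69.3 FPKM in TPC-1 and 58.5 after infection (log2 fold change −0.24, limma adjusted p = 5.46e-04) and FOXE1 at 4.30 and 3.19 (−0.42, limma adjusted p = 4.38e-04), whereas TG, TSHR and SLC5A5 were at or below 0.0841 FPKM in both groups and NKX2-1 was at 0. Of the 5 epithelial markers, KRT18 was at 41.2 FPKM in the wild strain and 85.2 after infection, and CDH1 was at 0.0786 and 0.0508. Of the leukocyte markers, CD3E was at 0, PTPRC had at most 1 read in a library, and CD14 was at 0.386 FPKM in the wild strain and 0.146 in RRM2-OE-TPC-1. Summed over each list, 4 germ cell markers were at 0.0328 to 0.0776 FPKM in TPC-1 libraries and 0.0723 to 0.131 in RRM2-OE-TPC-1 libraries (DAZL and PRM1 at 0). The 2 endothelial markers were at 0.857 to 1.05 and 0.0268 to 0.0971, nearly all of it PECAM1, and 3 fibroblast markers at 2.69 to 3.06 and 2.78 to 2.94 (DCN at 0). Their part in the histone results was not tested.

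The stem-loop that marks replication-dependent histone mRNA was searched on the sense strand of every annotated transcript (GENCODE 29, GRCh38). It was found in 41 of 19922 protein-coding genes (0.206%), of which 33 were histone genes of the rule: 32 replication-dependent genes and the replacement gene H2AFX. There were 7 distinct sequences of 16 bases, shown because the stem-loop is the end by which replication-dependent histone mRNA is processed. The other 39 replication-dependent models held none. Capitals mark bases that differ from the most frequent form, which 17 genes share.
HIST1H2AC, HIST2H2BE, HIST1H3H, HIST1H2BG and 13 others: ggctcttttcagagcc
HIST1H2BD, HIST1H2BC and 3 others: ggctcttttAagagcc
HIST1H4H, HIST4H4 and 3 others: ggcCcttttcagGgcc
HIST1H4I, HIST2H4A and HIST2H4B: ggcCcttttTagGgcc
H2AFX: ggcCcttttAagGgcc
HIST1H3E: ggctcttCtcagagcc
HIST1H2AG: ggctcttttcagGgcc
All H4 genes with a stem-loop had one of the forms with capitals at both stem strands, and H2AFX had the same stem with another base in the loop. Of the 39 without one, 33 replication-dependent genes were annotated as a coding sequence alone, with no bases in which a stem-loop could be found, among them HIST1H2BK, HIST1H1C and HIST2H2AC.

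Replication-dependent genes gave few reads. Multiplying FPKM by gene length showed that 100% of values in each library were whole multiples of 1 step (within 0.001 reads), so the reads could be recovered. Over the 6 libraries the 71 replication-dependent genes held 9388 reads and the 20 replacement genes 129450. Replication-dependent genes took 8.67%, 8.98% and 8.53% of histone reads in TPC-1 replicates 1 to 3 and 4.87%, 5.29% and 5.40% in RRM2-OE-TPC-1, so the groups did not overlap. Of the 71, 14 were listed at 0 in all 6 libraries, 20 more had under 10 reads in all, and the median was 10 reads. The methods state selection of polyadenylated RNA, whereas the labels state removal of ribosomal RNA and digestion with RNase R, and the 2 protocols would treat mRNA without a poly(A) tail differently. Of 12 RNAs that lack a poly(A) tail, 8 were at 0 in all libraries, among them RN7SK, RN7SL1 and RMRP, and 11 did not exceed 3 reads in any library. The exception was RN7SL2, with 31 to 60 reads a library. How reads that match several genes were counted is not given in the sources used here. The cause of these low values was not tested, so they do not tell the 2 protocols apart.

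Replication-dependent gene models ended in different ways, and their share of reads and their level per length were ordered differently. In 27 of the 71 genes the model held a stem-loop and either continued more than 100 bases beyond it or ended at a poly(A) signal (AATAAA or ATTAAA in the last 40 bases), and these genes held 67.9% of the reads of the class (6373 reads, of which 2809 were those of HIST1H2AC) at a median of 0.219 FPKM. In 5 genes the model ended within 100 bases of the stem-loop without a poly(A) signal, and these held 132 reads, or 1.41%, at a median of 0.730 FPKM. The 33 coding-only models held 28.4% at a median of 0.0826 FPKM, with most of these reads in HIST1H1C and HIST1H2BK. Of the groups just given, the 5 models that ended near the stem-loop thus had the highest median FPKM, on 132 reads. The single genes of highest FPKM lay in the other groups. The 1 model with a poly(A) signal and no stem-loop, HIST1H2BJ, was at 1.71 FPKM. The HIST1H2AC model ran up to 1128 bases past the stem-loop and the HIST1H3E model up to 1862 bases, both ending at a poly(A) signal. Of the 20 replacement models, 16 ended at a poly(A) signal, including all 10 that passed the filter used for testing. FPKM divides by the whole annotated length, so a model with a long extension has a lower FPKM for the same number of transcripts.

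**Figure D1:**
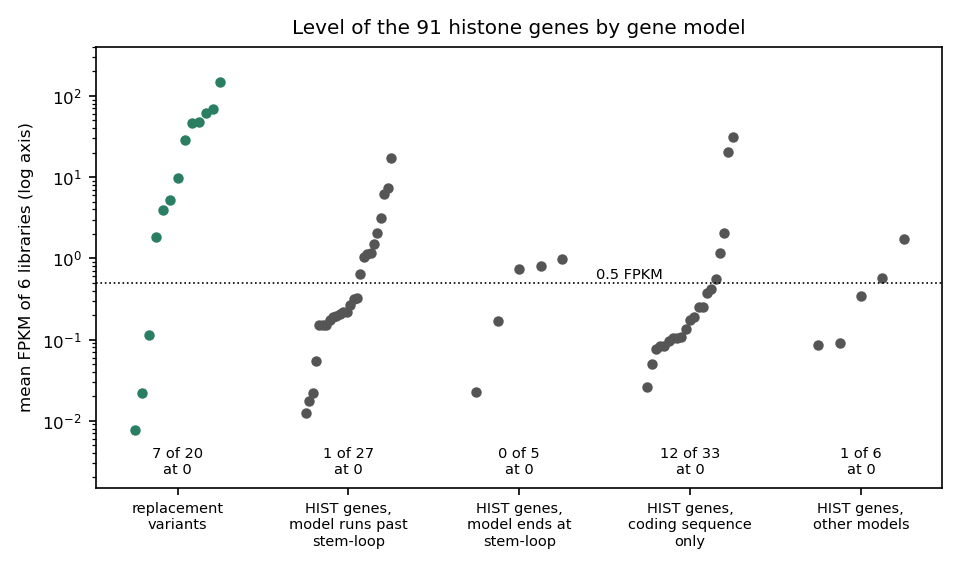
Mean FPKM over the 6 libraries (log axis) of the 91 histone genes, with replacement genes in green and replication-dependent genes in grey, split by how the annotated model ends; the number at 0 in all libraries stands under each column. The 5 models that end at the stem-loop have a median of 0.730 FPKM and reach 0.984, the models that run past it have a median of 0.219 and reach 17.2, and the coding-only models have a median of 0.0826 and reach 31.3.

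A single gene carried 29.9% of replication-dependent reads, HIST1H2AC. With HIST1H1C and HIST1H2BK the share was 55.8%, and the 12 genes with the most reads held 88.3%. Summed reads of the class were 113, 116 and 111 per 1000000 reads on genes in TPC-1 replicates 1 to 3 and 81.1, 85.5 and 87.8 in RRM2-OE-TPC-1, a ratio of 0.749. Without HIST1H2AC the ratio was 0.957 (70.9 ± 1.90 against 67.8 ± 3.16 per 1000000, SD, n = 3), so most of the difference in the sum came from that gene. The 20 replacement genes gave 1190, 1170 and 1190 per 1000000 in the wild strain and 1580, 1530 and 1540 in RRM2-OE-TPC-1, a ratio of 1.31, which was 1.18 without H2AFZ. In bulk RNA, here and below, a change in the share of cells in a phase of the cell cycle, in either direction, and a change in RNA per cell cannot be told apart. By type, replication-dependent sums had ratios of 1.01 for H1, 0.435 for H2A, 1.11 for H2B, 0.455 for H3 and 1.09 for H4, whereas replacement sums had ratios of 0.526 for H1, 1.46 for H2A and 1.27 for H3. Single genes held most reads of several of these sums. Among replication-dependent genes, HIST1H2AC held 2809 of 3158 H2A reads, HIST1H3E 534 of 825 H3 reads and HIST1H1C 1276 of 1314 H1 reads. Among replacement genes, H1FX held 6928 of 7343 H1 reads. No test was made of sums over members.

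Genes were tested with limma on log2(FPKM + 0.1) when at least 3 libraries had 0.5 FPKM and at least 3 had 10 reads, and passed at an adjusted p (Benjamini-Hochberg over all 13621 tested genes) of 0.05 or less. Of the 91 histone genes, 24 were tested, 14 replication-dependent and 10 replacement genes. Among the 14, 4 were higher, 3 were lower after RRM2 overexpression and 7 did not pass, with a median log2 fold change of 0.21. Among the 10 replacement genes, 5 were higher, 3 lower and 2 did not pass, with a median of 0.06. Of all tested genes 34.9% were higher and 32.7% lower, with a median of 0.01, so that 15 called histone genes out of 24 is close to what the whole table gave. With a change of at least 2-fold added, 4.48% of all genes were higher and 6.97% lower, and among histone genes this left HIST1H2BJ as higher, HIST1H2AC and HIST1H3E as lower and no replacement gene.

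**Figure D2:**
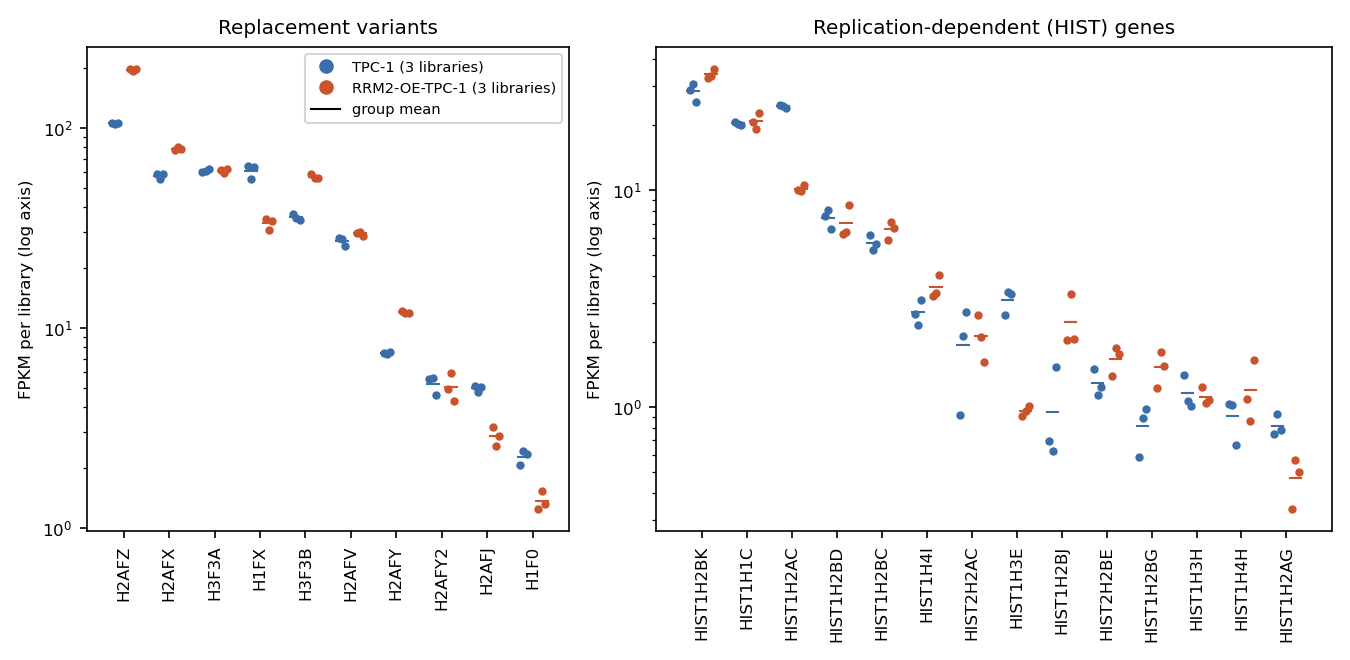
FPKM in each of the 6 libraries (log axis) for the 10 tested replacement genes, left, and the 14 tested replication-dependent genes, right, with blue points for TPC-1, orange points for RRM2-OE-TPC-1 and lines for the group means. H2AFZ, at 105 to 106 FPKM in the wild strain and 192 to 197 in RRM2-OE-TPC-1, was the most abundant, and HIST1H2AC and HIST1H3E are lower in all 3 RRM2-OE-TPC-1 libraries.

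Linker histone H1 binds the DNA that enters and leaves the nucleosome. The 2 tested replacement linker genes were lower in RRM2-OE-TPC-1, as were 32.7% of all tested genes, and the replication-dependent one did not pass. H1FX (ENSG00000184897, chromosome 3, 129314771 to 129316277 of GRCh38, minus strand), a single-exon gene for a divergent H1, was 64.3, 55.4 and 63.7 FPKM in TPC-1 replicates 1 to 3 and 35.0, 30.7 and 34.3 in RRM2-OE-TPC-1. The groups did not overlap, and the log2 fold change was −0.87 ± 0.07 (SE, limma adjusted p = 1.40e-05). H1F0, the linker histone known to accumulate in cells that have stopped dividing, was 2.05, 2.41 and 2.33 FPKM in the wild strain and 1.24, 1.52 and 1.31 in RRM2-OE-TPC-1. It was lower in every RRM2-OE-TPC-1 library, with a log2 fold change of −0.70 ± 0.11 (limma adjusted p = 7.81e-04). HIST1H1C, which is the most widely expressed of the replication-dependent linker genes, had 221, 218 and 205 reads in the wild strain and 190, 210 and 232 in RRM2-OE-TPC-1, or 20.3 ± 0.306 and 20.8 ± 1.81 FPKM. Its groups overlapped, and the log2 fold change was 0.03 ± 0.06 (limma adjusted p = 0.686). The other replication-dependent linker genes had few reads: HIST1H1E had 2, 4 and 2 against 6, 9 and 2, HIST1H1B had 1 against 6 in all, and HIST1H1A and HIST1H1D were among the genes at 0.

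H2A replacement genes formed the largest block of histone reads, and 4 of the 6 tested were higher, against 34.9% of all tested genes. H2AFZ (ENSG00000164032, chromosome 4, 99948086 to 99950388, minus strand), which encodes H2A.Z, a variant placed next to transcription start sites, was 106, 105 and 106 FPKM in the wild strain and 197, 192 and 197 in RRM2-OE-TPC-1. This corresponds to 4074, 4080 and 3876 reads against 6551, 7568 and 7215. The groups were far apart relative to their spread, with a log2 fold change of 0.88 ± 0.03 (limma adjusted p = 1.85e-07), and the ratio of mean FPKM was 1.85. H2AFV, the second H2A.Z gene, was 28.1, 27.9 and 25.8 FPKM in the wild strain and 29.9, 30.3 and 28.9 in RRM2-OE-TPC-1. The groups did not overlap but lay close, at 0.13 ± 0.04 (limma adjusted p = 0.0305). That call was lost when TPC-1 replicate 3 (adjusted p = 0.101) or replicate 1 (0.0682) or 2 (0.0962) of RRM2-OE-TPC-1 was left out, with no filter (0.0703) and after scaling to library totals (0.175).

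H2AFX (ENSG00000188486, chromosome 11, 119093854 to 119095467, minus strand), whose protein is phosphorylated around DNA breaks, was 58.7, 55.4 and 58.6 FPKM in the wild strain and 77.7, 80.2 and 78.6 in RRM2-OE-TPC-1. All RRM2-OE-TPC-1 libraries were higher, by 0.45 ± 0.03 on the log2 scale (limma adjusted p = 1.11e-05). It is the one replacement gene with a stem-loop, and its model runs 1044 bases past it to a poly(A) signal. H2AFY, which encodes macroH2A of silent chromatin, was 7.48, 7.36 and 7.59 FPKM in the wild strain and 12.2, 11.9 and 11.9 in RRM2-OE-TPC-1, without overlap (0.67 ± 0.04, limma adjusted p = 2.94e-06). Its annotated length of 17730 bases covers the exons of 20 transcripts, so its 16634 reads give a low FPKM. The paralog H2AFY2 was 5.57, 5.59 and 4.63 against 4.96, 5.96 and 4.28 FPKM, with overlapping groups (−0.06 ± 0.12, limma adjusted p = 0.683). H2AFJ, described as accumulating in senescent cells, was 5.09, 4.75 and 5.07 FPKM in the wild strain and 3.20, 2.56 and 2.86 in RRM2-OE-TPC-1. It was the lower one among the tested H2A replacement genes, by −0.78 ± 0.09 on the log2 scale (limma adjusted p = 1.05e-04), and its groups did not overlap.

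Of the 3 tested H2A genes of the HIST clusters, 2 were lower in RRM2-OE-TPC-1 and none was higher. Of all tested genes, 32.7% were lower and 34.9% higher. HIST1H2AC (ENSG00000180573, chromosome 6, 26124145 to 26139116, plus strand) had 687, 687 and 632 reads in the wild strain and 241, 282 and 280 in RRM2-OE-TPC-1, or 24.3 ± 0.477 against 10.1 ± 0.354 FPKM (SD, n = 3). The groups were widely separated, and the log2 fold change was −1.25 ± 0.04 (limma adjusted p = 1.54e-07), a ratio of mean FPKM of 0.417. HIST1H2AG had 28, 35 and 28 reads in the wild strain and 11, 22 and 18 in RRM2-OE-TPC-1. These did not overlap (−0.70 ± 0.20, limma adjusted p = 0.0143), but the call was lost without TPC-1 replicate 2 (adjusted p = 0.0521) and with no filter (0.0788). HIST2H2AC, with 6, 14 and 17 reads against 15, 14 and 10, overlapped between groups (0.23 ± 0.36, limma adjusted p = 0.593). Among those not tested, HIST1H2AE had 5, 11 and 6 reads against 6, 13 and 8, and HIST1H2AI had 11, 12 and 5 against 1, 6 and 5.

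H2B reads came almost wholly from the HIST clusters, since 3 of the 4 replacement H2B genes were at 0 and 1 of 2 entries named H2BFS had 2 reads in the wild strain and 3 in RRM2-OE-TPC-1. Of the 6 tested, 3 were higher and none was lower, against 34.9% higher and 32.7% lower of all tested genes. HIST1H2BK (ENSG00000197903, chromosome 6, 27146418 to 27146798, minus strand) had the highest FPKM of the HIST genes, with 28.9, 30.9 and 25.5 in the wild strain and 32.9, 33.4 and 36.1 in RRM2-OE-TPC-1. The groups were adjacent without overlap (0.26 ± 0.07, limma adjusted p = 0.0105). Its annotated model is a coding sequence of 381 bases, which leaves out any untranslated bases. HIST1H2BJ had 11, 10 and 23 reads in the wild strain and 28, 54 and 31 in RRM2-OE-TPC-1, equal to 0.694, 0.626 and 1.52 against 2.04, 3.32 and 2.05 FPKM. TPC-1 replicate 3 lay above the other two but below all RRM2-OE-TPC-1 libraries, and the log2 fold change was 1.36 ± 0.32 (limma adjusted p = 0.00563). HIST1H2BG had 15, 23 and 24 reads against 27, 47 and 38, without overlap (0.83 ± 0.21, limma adjusted p = 0.00787).

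The remaining tested H2B genes overlapped between groups. HIST1H2BD had 110, 118 and 92 reads in the wild strain and 79, 96 and 118 in RRM2-OE-TPC-1 (−0.08 ± 0.12, limma adjusted p = 0.595). HIST1H2BC was 6.18, 5.28 and 5.64 against 5.89, 7.14 and 6.70 (0.20 ± 0.09, adjusted p = 0.0700). HIST2H2BE was 1.50, 1.14 and 1.23 against 1.39, 1.86 and 1.75 (0.34 ± 0.15, adjusted p = 0.0716). HIST1H2BC and HIST2H2BE passed once either TPC-1 replicate 1 was left out (adjusted p = 0.0409 and 0.0373) or RRM2-OE-TPC-1 replicate 1 (0.0193 and 0.0268). These low genes were left out by the FPKM minimum: HIST1H2BN, with 32, 31 and 25 reads against 16, 25 and 13, and HIST2H2BF, with 17, 10 and 10 against 1, 6 and 4. With the read minimum alone as the filter, HIST1H2BN did not pass (−0.49 ± 0.19, limma adjusted p = 0.0520). HIST2H2BF did (−0.99 ± 0.26, limma adjusted p = 0.00991), but it reached 10 reads only in the 3 TPC-1 libraries. It thus met that minimum only through the group where it was higher, so this call is no test of a decrease. With no filter the limma adjusted p of HIST2H2BF was 0.0780.

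H3 and H4 form the central tetramer of the nucleosome. The genes H3F3A and H3F3B encode the same replacement H3 protein, which is deposited at active genes. H3F3B passed the test and H3F3A did not, and the difference between their changes was not tested. H3F3B (ENSG00000132475, chromosome 17, 75776434 to 75785893, minus strand) was 37.0, 35.5 and 34.7 FPKM in the wild strain and 58.8, 55.9 and 56.2 in RRM2-OE-TPC-1. The groups did not overlap, and the log2 fold change was 0.67 ± 0.04 (limma adjusted p = 2.08e-06). H3F3A was 60.1, 60.7 and 62.6 against 61.9, 59.3 and 62.5 FPKM, with overlapping groups (0.00 ± 0.03, limma adjusted p = 0.964); the sign of this value turned after scaling to library totals (−0.06). Of the 150-base windows of H3F3A, 7.82% occur exactly in its pseudogenes H3F3AP4 and H3F3AP6, so some of its reads may be shared, while H3F3B shared none. Per length, H3F3A was the higher of these genes in all 3 TPC-1 libraries, and in RRM2-OE-TPC-1 it still was, by less. That order rests on annotated lengths of 3146 bases for H3F3A and 6134 for H3F3B. In reads H3F3B was higher in every library, with 10844 against 9507 over TPC-1 and 16573 against 9143 over RRM2-OE-TPC-1. H3F3C had 2 reads in all.

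HIST1H3E (ENSG00000274750, chromosome 6, 26224199 to 26227473, plus strand), a replication-dependent H3 gene, had 118, 152 and 142 reads in the wild strain and 35, 44 and 43 in RRM2-OE-TPC-1. This was 2.64, 3.37 and 3.33 against 0.904, 0.959 and 1.01 FPKM. It was the largest decrease among the tested histone genes, at −1.60 ± 0.12 (limma adjusted p = 9.36e-06), a ratio of mean FPKM of 0.307. HIST1H3H had 29, 22 and 20 reads against 22, 22 and 21 and overlapped (−0.05 ± 0.15, adjusted p = 0.802). None of the other 13 H3 genes of the clusters was tested. Of the H4 genes, HIST1H4I was 2.69, 2.39 and 3.10 FPKM in the wild strain and 3.26, 3.34 and 4.07 in RRM2-OE-TPC-1, without overlap. Its log2 fold change was 0.37 ± 0.12 (limma adjusted p = 0.0246), a call lost when replicate 1 (0.0615) or 2 (0.0778) of TPC-1 or replicate 3 (0.0807) of RRM2-OE-TPC-1 was left out, with voom on recovered reads (0.0588) and with no filter (0.0755). HIST1H4H was 1.03, 1.02 and 0.667 against 1.09, 0.864 and 1.65 FPKM and overlapped (0.35 ± 0.25, adjusted p = 0.238). HIST1H4K, which the filter removed, had 10, 14 and 7 reads against 1, 2 and 2, and with no filter it passed at a log2 fold change of −2.26 (limma adjusted p = 0.00158). It shares exact 150-base windows with HIST1H4J, so its reads are uncertain.

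**Figure D3:**
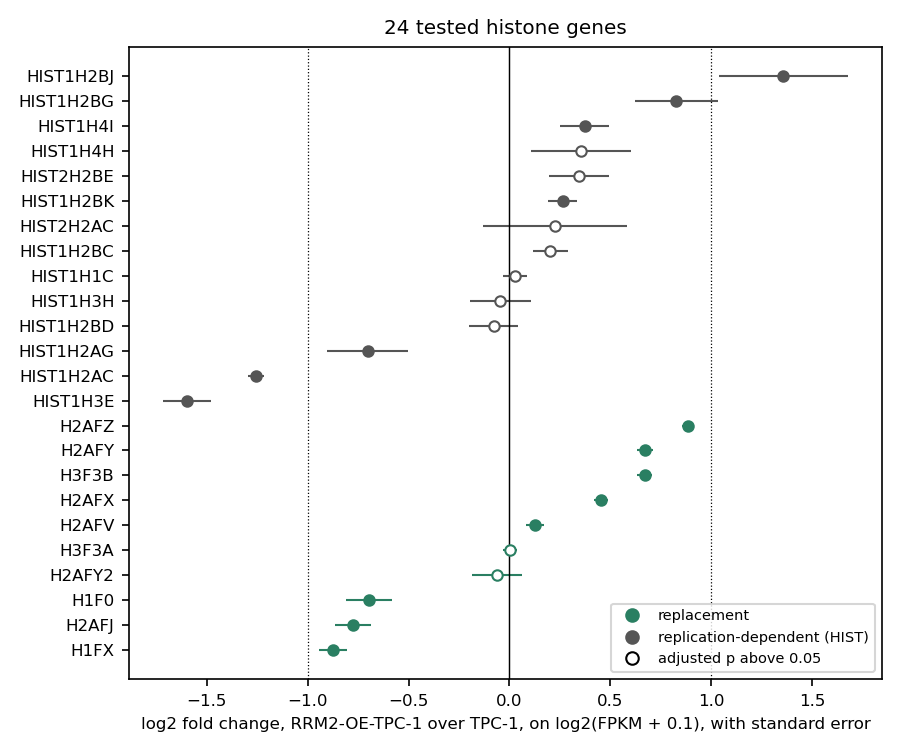
Log2 fold change of RRM2-OE-TPC-1 over TPC-1 on log2(FPKM + 0.1) for the 24 tested histone genes, with standard errors, green for replacement and grey for replication-dependent genes, filled where the adjusted p was 0.05 or less and with dotted lines at −1 and 1. HIST1H2BJ lies beyond 1 and HIST1H2AC and HIST1H3E beyond −1, and all replacement genes lie between −0.87 and 0.88.

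Many H2A and H2B genes of the clusters stand head to head and share the DNA between their starts. There were 12 divergent pairs of histone genes with starts at most 600 bases apart, and both genes were tested in 3. That the members of a pair differed in direction was noticed after their values were seen, and it is given as a description. In the pair HIST1H2BC and HIST1H2AC, 218 bases apart, H2B took 9.72 to 11.1 of each 100 reads of both genes in the wild strain and 22.8 to 26.6 in RRM2-OE-TPC-1. In the pair HIST1H2BJ and HIST1H2AG, 291 bases apart, it took 22.2, 28.2 and 45.1 in TPC-1 (lowest, median, highest) and 63.3, 71.1 and 71.8 in RRM2-OE-TPC-1. In these 2 pairs the groups were separate, with H2AC and H2AG lower, H2BJ higher and H2BC not past the threshold. The pairs HIST1H2BG with HIST1H2AE, at 67.6 to 80.0 and 78.3 to 82.6, and HIST2H2BE with HIST2H2AC, at 71.7 to 90.2 and 74.6 to 85.9, overlapped.

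**Figure D4:**
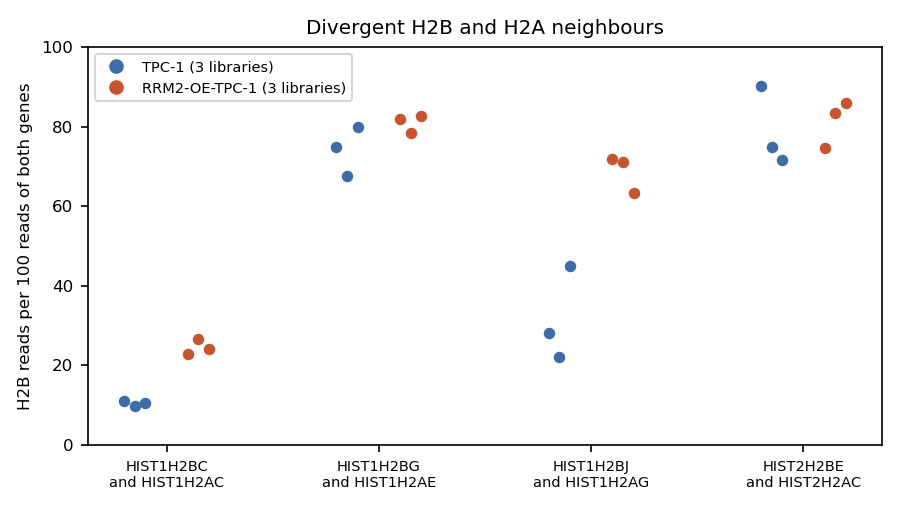
Reads of the H2B gene per 100 reads of both genes in each library (linear axis from 0 to 100) for the 4 divergent H2A and H2B pairs in which each gene had at least 40 reads over the 6 libraries, with blue points for TPC-1 and orange points for RRM2-OE-TPC-1. The groups are separate in the pairs of HIST1H2AC and HIST1H2AG and overlap in the other two.

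The shared DNA of both separate pairs is shown beside that of H2AFZ, as RefSeq promoter windows (GRCh38.p14) of 300 bases from 250 before the start to 50 after it. RefSeq starts differ from those of GENCODE 29, from which the distances above were taken, and the GENCODE start of HIST1H2BJ (27132750) lies outside the window of its neighbour. Capitals mark CCAAT (a site of the NF-Y complex), TATAAA (the TATA box) and ATTTGCAT (the octamer bound by OCT1), each searched on both strands, so that they also appear as the reverse complement. Matches of TATAAA on the 2 strands can overlap, as they do in the window of HIST1H2AG.
HIST1H2AC, chr6:26123922-26124221, plus strand, which also covers the RefSeq start of HIST1H2BC: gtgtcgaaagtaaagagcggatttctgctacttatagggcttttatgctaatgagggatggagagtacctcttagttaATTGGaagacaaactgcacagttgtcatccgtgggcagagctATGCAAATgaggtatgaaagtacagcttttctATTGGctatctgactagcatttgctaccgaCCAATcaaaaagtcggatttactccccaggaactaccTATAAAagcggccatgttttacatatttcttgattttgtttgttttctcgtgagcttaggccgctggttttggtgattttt
HIST1H2AG, chr6:27132793-27133092, plus strand, which also covers the RefSeq start of HIST1H2BJ: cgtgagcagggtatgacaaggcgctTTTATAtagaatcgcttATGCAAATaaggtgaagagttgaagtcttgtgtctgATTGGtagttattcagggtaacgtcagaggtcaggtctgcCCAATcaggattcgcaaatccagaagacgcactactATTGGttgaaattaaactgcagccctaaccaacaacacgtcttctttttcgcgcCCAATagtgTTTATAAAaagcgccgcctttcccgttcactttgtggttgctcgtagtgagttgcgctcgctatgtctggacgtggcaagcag
H2AFZ, chr4:99950226-99950525, minus strand: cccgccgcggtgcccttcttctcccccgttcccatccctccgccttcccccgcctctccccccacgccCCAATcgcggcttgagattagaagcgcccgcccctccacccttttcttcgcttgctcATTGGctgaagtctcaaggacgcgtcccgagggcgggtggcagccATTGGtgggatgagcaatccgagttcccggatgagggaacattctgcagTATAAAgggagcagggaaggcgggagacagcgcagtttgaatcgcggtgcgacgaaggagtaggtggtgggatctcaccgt
Of 66 replication-dependent genes with a matched window, 84.8% held CCAAT, 66.7% TATAAA and 39.4% ATTTGCAT. Divergent neighbours such as HIST1H2AG and HIST1H2BJ share most of their windows, so a match can be counted for both genes. Of 16 replacement genes 13 held CCAAT (81.2%), 4 TATAAA and 1 ATTTGCAT, and of all 35116 RefSeq windows the shares were 34.6%, 11.5% and 1.77%. Most histone windows of both classes thus held CCAAT, while the octamer was mostly found in the replication-dependent ones. A match describes letters in the window and not binding.

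Histone supply was followed through a hand-written list of 77 genes, assigned to transcription of histone genes, processing or decay of their mRNA, or carriage of histone proteins. Whether each gene has the assigned function was not tested, among them SLIRP and CTIF under processing and CENPA under variant chaperones. Of 76 tested, 46 were higher, 15 were lower and 15 did not pass, with a median log2 fold change of 0.26, against 34.9% higher and 32.7% lower of all genes. The list was chosen with earlier results of these data known, so its counts describe these genes and do not test histone supply. At 2-fold, 6 were higher and none lower, against 4.48% higher and 6.97% lower of all tested genes. Of 18 tested replication chaperones, 15 were higher and none was lower, with a median of 0.74. The 2 large subunits of CAF-1, which loads H3 and H4 onto new DNA, were higher, CHAF1A from 8.82 ± 0.31 to 17.2 ± 0.194 FPKM (SD, n = 3) and CHAF1B from 3.29 ± 0.126 to 8.23 ± 0.647. ASF1B, which hands H3 and H4 to CAF-1, rose from 13.7 ± 0.286 to 28.6 ± 1.62 FPKM. Variant chaperones gave 8 higher, 4 lower and 7 not past the threshold, with a median of 0.08. HIRA, which deposits the H3F3A and H3F3B protein at genes, was 2.08 ± 0.182 and 2.00 ± 0.188 FPKM (limma adjusted p = 0.685). DAXX, which does so at repeats together with ATRX, was higher by 0.20 ± 0.04 on the log2 scale (limma adjusted p = 0.00391), and ATRX was lower (−0.45 ± 0.07, limma adjusted p = 4.92e-04).

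Under mRNA processing 11 of the 17 listed genes were higher and 5 lower, against 34.9% and 32.7% of all tested genes. SLIRP (0.82) was among the higher and CTIF (−0.44) among the lower, and their part in histone mRNA processing was not tested. SLBP, the protein that binds the stem-loop, was 20.4, 21.3 and 22.4 FPKM in the wild strain and 45.4, 41.5 and 42.1 in RRM2-OE-TPC-1. The groups did not overlap, and the log2 fold change was 1.00 ± 0.05 (limma adjusted p = 1.03e-06). ZNF473, a zinc finger protein of the processing complex, was lower by −0.47 ± 0.13. In mRNA decay 6 of 10 were higher and 2 lower, the larger decrease being that of the uridylyltransferase TUT4 (−0.60 ± 0.06). Of the 12 transcription factors and cyclins, 6 were higher and 4 lower, the latter near the share of all genes. NPAT, the coactivator of histone transcription in S phase, was higher by 0.30 ± 0.11 (adjusted p = 0.0420), and its partner CASP8AP2 by 0.33 ± 0.08. The cyclins E, which activate NPAT through CDK2, were the largest increases of the list: CCNE2 was 1.48 ± 0.162 and 5.67 ± 0.311 FPKM (log2 fold change 1.87) and CCNE1 1.17 ± 0.157 and 3.38 ± 0.255 (1.45). NFYB, a subunit of NF-Y, was the largest decrease, from 9.88 ± 0.287 to 5.28 ± 0.361 FPKM (−0.89 ± 0.06, limma adjusted p = 5.48e-06).

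**Figure D5:**
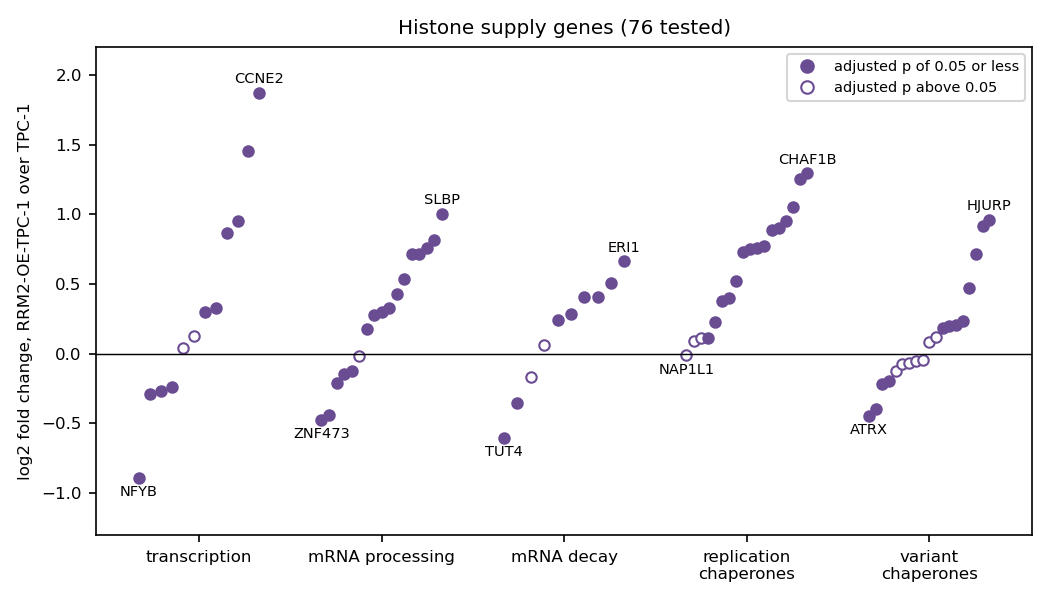
Log2 fold change of RRM2-OE-TPC-1 over TPC-1 for the 76 tested histone supply genes, sorted within each of 5 functions, filled where the adjusted p was 0.05 or less; the lowest and highest gene of each function is named. Replication chaperones lie at or above −0.01, and CCNE2 (1.87) and NFYB (−0.89) mark the ends of the whole list.

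Some of the values above have limits in the counting. The libraries were made with a directional kit, which keeps strand, but whether strand was used in counting is not given in the sources used here, and exons on the opposite strand overlap those of H3F3B (UNK, 214 bases, 4.88 FPKM), H2AFY (C5orf66, 4968 bases, 0.314 FPKM), H1FX (H1FX-AS1, 345 bases, 0.180 FPKM), H2AFZ (AC097460.1, 223 bases, 0.0858 FPKM), H3F3A (AL512343.2, 26 bases) and H2AFY2 (AIFM2, 11 bases). None of the 14 tested replication-dependent genes had such an overlap or an exact 150-base window in another gene, whereas 16 of the 71 did share one, among them copies of H2A, H3 and H4 in HIST2 that cannot be told apart where they are identical.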

How the data were processed

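RNA of 3 TPC-1 and 3 RRM2-OE-TPC-1 libraries was sequenced with paired-end reads. The submitters' processing notes name HISAT2 2.0.5, featureCounts 1.5.0, DESeq2 1.20.0 and GRCh38.p14. The authors deposited FPKM per gene; handling of reads that match several genes and of strand is not given in the sources used here. Gene positions were those of GENCODE 29. Reads were recovered as FPKM × length over the step of each library; the authors' depth followed median-of-ratios factors. Because the files hold FPKM, limma 3.58.1 (R 4.3.3; lmFit, eBayes with a variance trend, Benjamini-Hochberg) was fitted to log2(FPKM + 0.1) over 13621 genes, and tables were made with Python 3.11.15, pandas 2.3.3 and matplotlib 3.10.9. On simulated data (13507 genes) 93.9% of 99 changes of 1 on the log2 scale and 18 unchanged genes were called. The simulation changed few genes and gave every gene the same dispersion, whereas 67.6% of genes were called in the data. Its rates therefore need not hold for these data or for histone genes with few reads. No 2 libraries agreed within sampling noise.

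The members and lists were chosen with earlier results of these data known. All tested replacement genes, the 12 replication-dependent genes with the most reads, the 5 largest changes each way and fixed supply genes are given by name; other members are named by their reads. Alternatives were pseudocounts of 1 and 0.01, no filter, the read minimum alone, library totals, median-of-ratios factors, voom, a replicate block, 2-fold and each library left out. Summed FPKM and reads have no test. Proteins of the members are not used here. Some markers of the lists are not reported here.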

Additional observations from a re-analysis of the deposited data

How the results depend on the processing

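Of the 24 tested histone genes, 13 kept their direction and their side of the threshold under every alternative run. Under at least 1 alternative, 3 lost their call (H2AFV, HIST1H4I and HIST1H2AG) and 2 gained one (HIST1H2BC and HIST2H2BE). The other 6, none of which passed in the main fit, changed sign. The cause was not tested. Requiring 2-fold left 1 replication-dependent gene higher and 2 lower, 0 replacement genes higher and 0 lower, and 6 supply genes higher and 0 lower. Of all tested genes, 4.48% were higher and 6.97% lower at 2-fold. The ratio of summed reads was 0.957 for replication-dependent genes without HIST1H2AC, and for replacement genes 1.36 with median-of-ratios factors and 1.18 without H2AFZ. Scaled to library totals, H3F3A was −0.056 and HIST1H1C −0.029 on the log2 scale. With single libraries left out, H3F3A ranged from −0.014 to 0.025, HIST1H1C from −0.037 to 0.087, HIST1H2BD from −0.215 to 0.001, H2AFY2 from −0.182 to 0.052, HIST2H2AC from −0.207 to 0.529 and HIST1H3H from −0.127 to 0.089.

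The replicate numbers did not pair the libraries (correlations of same-numbered deviations −0.0105, −0.00602 and −0.0550). With the replicate block, 4 replication-dependent genes were higher and 3 lower, and 5 replacement genes were higher and 3 lower. Of the supply genes, 45 were higher and 12 lower. The share of all tested genes called with the block is not given here. These counts can therefore be set only beside those of the main fit, and not against the whole table. Of the 57 replication-dependent genes that were not tested, 14 were at 0 and 3 (HIST1H2BN, HIST2H2BF and HIST4H4) met the read minimum but not the FPKM minimum; the cause of the low values was not tested.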
